A study of Mus musculus with 14 samples.

Results

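The genes described here are those of MHC class I antigen presentation and the immunoproteasome in mouse skeletal muscle precursor cells of 3 ages. They are the class I heavy chains H2-K1 and H2-D1, the light chain B2m, the peptide transporter genes Tap1 and Tap2, the loading factor Tapbp, the immunoproteasome subunits Psmb8, Psmb9 and Psmb10, and the transactivator Nlrc5. The members are every probe set that the array annotation gave to 1 of these 10 genes alone, which made 27 of the 34945 probe sets with a single gene symbol, out of 45101 on the array. Of the 27, 19 passed a filter on dim signal and entered the tests, and each of the 10 genes kept at least 1 probe set. Another 3 probe sets name a member among several genes and were not tested.

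Class I molecules carry short peptides from inside the cell to its surface, where CD8 T cells read them. The proteasome cuts proteins into peptides, the Tap1 and Tap2 transporter brings the peptides into the endoplasmic reticulum, and tapasin, the product of Tapbp, holds the empty heavy chain and B2m dimer to the transporter until a peptide binds. In the immunoproteasome, the induced subunits Psmb8, Psmb9 and Psmb10 take the places of the constitutive subunits Psmb5, Psmb6 and Psmb7, and Nlrc5 is the regulator that drives the class I promoters. Interferon raises the whole pathway in most cell types, and resting muscle fibres are known for little class I at their surface.

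RNA came from myofibre-associated cells of C57BL/6 mice, sorted as positive for CD29 and Cxcr4 and negative for CD45, Ter119 and Sca-1, a gate used to enrich the stem cells of muscle, named satellite cells. Each of the groups is an age: 5 arrays of young mice (2 months), 4 of middle-aged mice (12 months) and 5 of aged mice (24 months), all of 1 genetic background, with no treatment named for any array. Whether the arrays stand for separate animals is not in the labels, so p-values measure the spread between these samples, which may be in part technical. Levels are log2 of the authors' RMA intensity, in which 1 unit is a 2-fold difference, and the level of 1 probe set is not comparable with that of another. A gene was called higher or lower at an adjusted p under 0.05 in limma, with Benjamini-Hochberg adjustment over all 23887 probe sets tested.

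Across the ages, the 14 arrays were split into set 1 and set 2 by the sign of 1 principal component. It was the first component of age-centred values with the members left out (31.3% of that variance). Such a rule always yields set 1 and set 2, and whether the arrays form separate groups was not tested. Set 1 held young arrays 1, 3 and 4, middle-aged arrays 2, 3 and 4 and aged arrays 1 and 2, and set 2 held young arrays 2 and 5, middle-aged array 1 and aged arrays 3, 4 and 5. At equal age the sets differed in several members, by 0.58 in B2m, 0.43 in Psmb10, -0.62 in Tap1 and -0.48 in H2-D1 (set 2 minus set 1), and by 0.00 in Nlrc5 and -0.02 in Psmb8. RNA quality was read as the 3′ signal minus the 5′ signal of control probe sets for Gapdh and Actb, and this 3′ minus 5′ difference averaged 3.54 ± 0.51 on aged and 4.30 ± 0.54 on young arrays (SD, n = 5 each; exact two-sided permutation p = 0.0714).

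In aged against young cells, 10 of the 19 member probe sets were called higher and 0 lower, beside 2.21% higher and 0.888% lower among all probe sets tested. The 10 belonged to 6 genes, namely H2-K1, H2-D1, B2m, Tapbp, Psmb8 and Nlrc5. With 1 probe set a gene, 6 of the 10 genes were called higher, beside 2.76% of all genes. Several of the 10 calls are heavy chain probe sets ending in _x_at, which may share signal. Without probe sets ending in _x_at or _s_at, 4 of 11 were called. The median log2 change of the 19 was 0.88, and that of all probe sets was -0.05. Nlrc5 had the highest fold, 3.04, and the other 9 calls lay between 1.70 and 2.09. In 9 of the 19, all aged arrays lay above all young arrays, as in 2.82% of all probe sets. In middle-aged against young cells, 5 of the 19 were called higher and 0 lower, beside 1.18% higher and 0.682% lower among all. All 5 were heavy chain probe sets ending in _x_at. In 8 of the 19 the groups did not overlap, beside 3.24% of all probe sets higher without overlap.

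**Figure D1:**
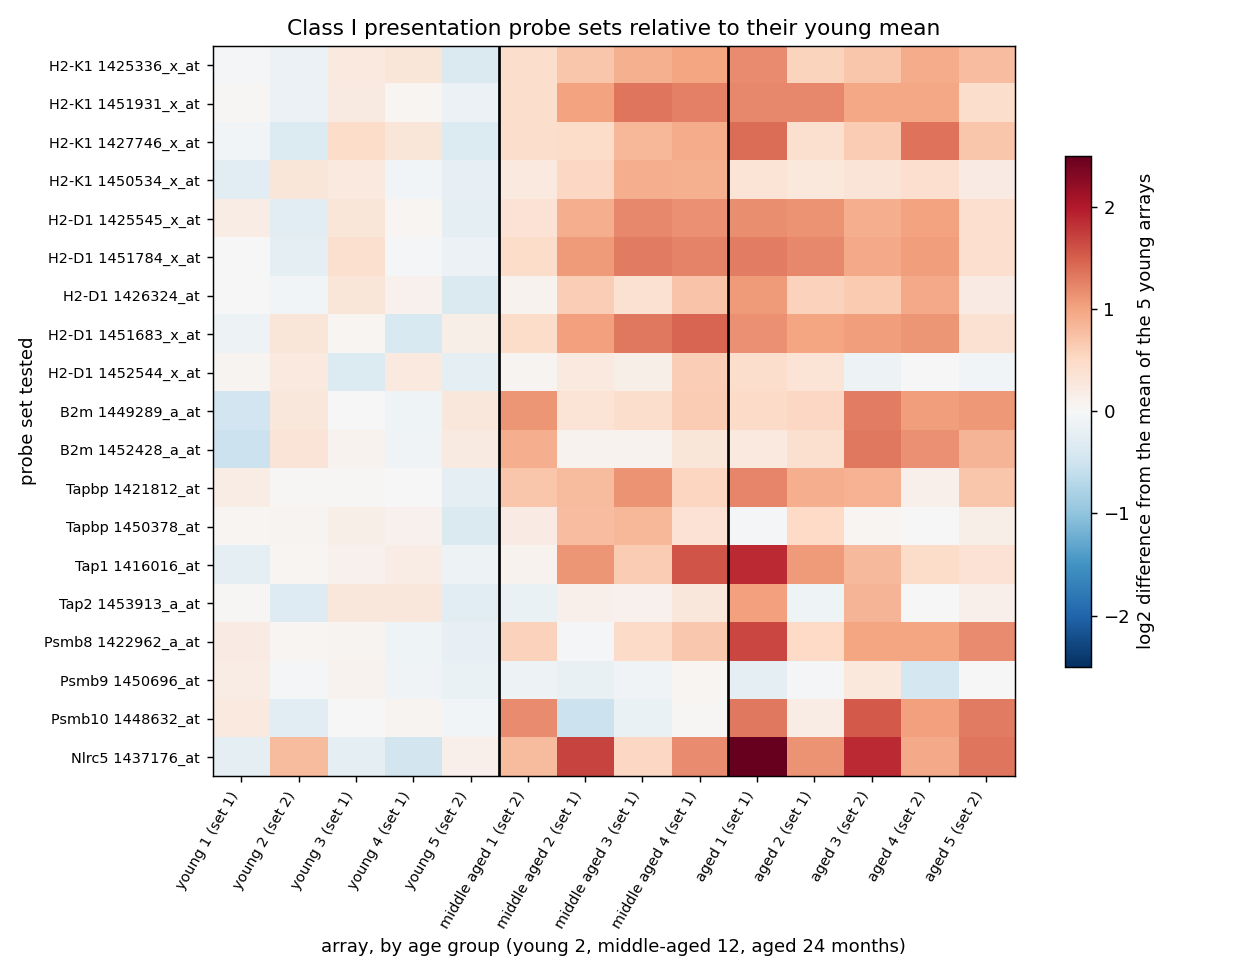
Log2 difference of each of the 19 tested probe sets (rows) on each of the 14 arrays (columns, array set in brackets) from the mean of the 5 young arrays; red is higher and blue lower. Apart from H2-D1 1452544_x_at, the heavy chain rows are red from 12 months on, the Psmb8 and Psmb10 rows mainly at 24 months, and the Psmb9 row stays pale throughout.

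The heavy chains H2-K1 and H2-D1, which form the peptide groove, were higher at both later ages. H2-K1 probe set 1425336_x_at read 10.77, 10.66, 11.06, 11.12 and 10.44 on the young arrays, 11.24, 11.50, 11.70 and 11.80 on the middle-aged and 12.00, 11.36, 11.50, 11.74 and 11.58 on the aged arrays. H2-D1 probe set 1425545_x_at read 11.02, 10.56, 11.13, 10.88 and 10.59 on the young arrays, 11.19, 11.74, 12.04 and 11.98 on the middle-aged and 12.00, 11.96, 11.75, 11.84 and 11.25 on the aged arrays. In both, every older array lay above every young array, and middle-aged array 1 was the lowest of the middle-aged. Aged cells exceeded young cells by 0.83 ± 0.17 in H2-K1 (limma SE, adjusted p = 0.0141, 1.77-fold) and by 0.92 ± 0.20 in H2-D1 (adjusted p = 0.0154, 1.90-fold). Middle-aged cells exceeded young cells by 0.75 ± 0.18 in H2-K1 (limma adjusted p = 0.0472) and by 0.90 ± 0.21 in H2-D1 (0.0381), and aged cells differed from middle-aged cells by 0.07 ± 0.18 and 0.02 ± 0.21. Of the 14 fits without 1 array, the 12-month call was kept in 4 for H2-K1 and 6 for H2-D1, and the 24-month calls in all 14. Quantile normalization also ended the 12-month calls (limma adjusted p = 0.0582 and 0.0522).

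The other heavy chain probe sets gave further calls. H2-K1 1451931_x_at (0.96 ± 0.19, limma adjusted p = 0.0106) and H2-D1 1451784_x_at (0.98 ± 0.20, 0.0126) were also called, as were H2-K1 1427746_x_at (0.90, 0.0410) and H2-D1 1451683_x_at (0.93, 0.0204). By the array's naming, probe sets ending in _x_at can match other genes, and whether these heavy chains share signal was not tested. Over the 14 arrays, the difference between H2-K1 1451931_x_at and H2-D1 1451784_x_at had an SD of 0.0678, while that between H2-K1 1451931_x_at and H2-K1 1425336_x_at had an SD of 0.261. It was 0.240 between the 2 probe sets given in full above, and the genes are reported with that uncertainty. H2-D1 1426324_at is the 1 tested heavy chain probe set without that ending. It read 9.45, 8.97, 9.06, 9.35 and 8.60 on aged arrays, against 8.41, 8.32, 8.70, 8.51 and 8.03 on young arrays, so that aged array 5 lay within the young range. Its change of 0.69 ± 0.19 did not pass (limma adjusted p = 0.0593).

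A pair of dimmer heavy chain probe sets did not pass, H2-K1 1450534_x_at with 0.31 ± 0.16 (limma adjusted p = 0.383) and H2-D1 1452544_x_at with 0.11 ± 0.17 (0.823). The 4 H2-D1 probe sets below the filter had age means between 3.15 and 3.73. Among them, 1450170_x_at had means of 3.15 ± 0.11, 3.62 ± 0.21 and 3.73 ± 0.22 at 2, 12 and 24 months (SD, n = 5, 4 and 5) and was not tested. H2-D1 1451683_x_at was not called once the 3′ minus 5′ control difference entered as a covariate (0.79, limma adjusted p = 0.125) or without young array 1 or 4 or aged array 1, and H2-K1 1427746_x_at kept its call in 5 of the 14 fits that leave out 1 array. With the aged and young arrays alone, H2-K1 1427746_x_at was not called (limma adjusted p = 0.0765).

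The promoter of H2-D1 is shown because its heavy chain was called at 24 months with any 1 array left out, and it holds the textbook class I elements in a short stretch. Sequences are from RefSeq's promoter table (GRCm38.p6), 250 bases before the annotated start, 5′ to 3′ on the gene's strand, and the motifs were picked as known class I elements after the promoters had been seen. Capitals mark, in order, a match to the kappaB core GGGNNTTCC, the class I interferon element core GAANNGAAA on the other strand, the X2 box core TGACG and the Y box core ATTGG. The window is chr17:35262844-35263093 on the plus strand.
H2-D1 promoter: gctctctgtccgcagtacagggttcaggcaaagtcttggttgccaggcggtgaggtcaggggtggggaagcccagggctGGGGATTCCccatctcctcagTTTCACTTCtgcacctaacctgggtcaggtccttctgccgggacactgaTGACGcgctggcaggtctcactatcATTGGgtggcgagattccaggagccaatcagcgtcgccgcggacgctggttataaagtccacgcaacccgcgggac
The kappaB core was present in 5.82% of 32851 promoter windows, which run from 250 bases before to 50 after each start and were searched on both strands, and the class I interferon element core in 7.52%. TGACG followed on the same strand by ATTGG after 10 to 40 bases was present in 0.96%. The marked motifs do not overlap each other, and a reverse Y box core (CCAAT) 53 bases before the start of H2-D1 is left unmarked. H2-D1, H2-K1 and B2m each had that order with 20 bases between, and each match is a description of letters, not of bound factors.

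The stretch from the kappaB core to the interferon element core is shown for both heavy chains, since they were called together. It lies at chr17:35262923-35262952 on the plus strand for H2-D1 and at chr17:34000429-34000458 on the minus strand for H2-K1, and capitals mark the same 2 matches.
H2-D1 element: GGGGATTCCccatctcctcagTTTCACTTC
H2-K1 element: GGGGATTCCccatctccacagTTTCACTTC
The 30 bases differ at 1 position, T18A, counted from 1 at the 5′ end with the H2-D1 base first. Over 150 aligned promoter bases the genes share 136, or 90.7%.

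**Figure D2:**
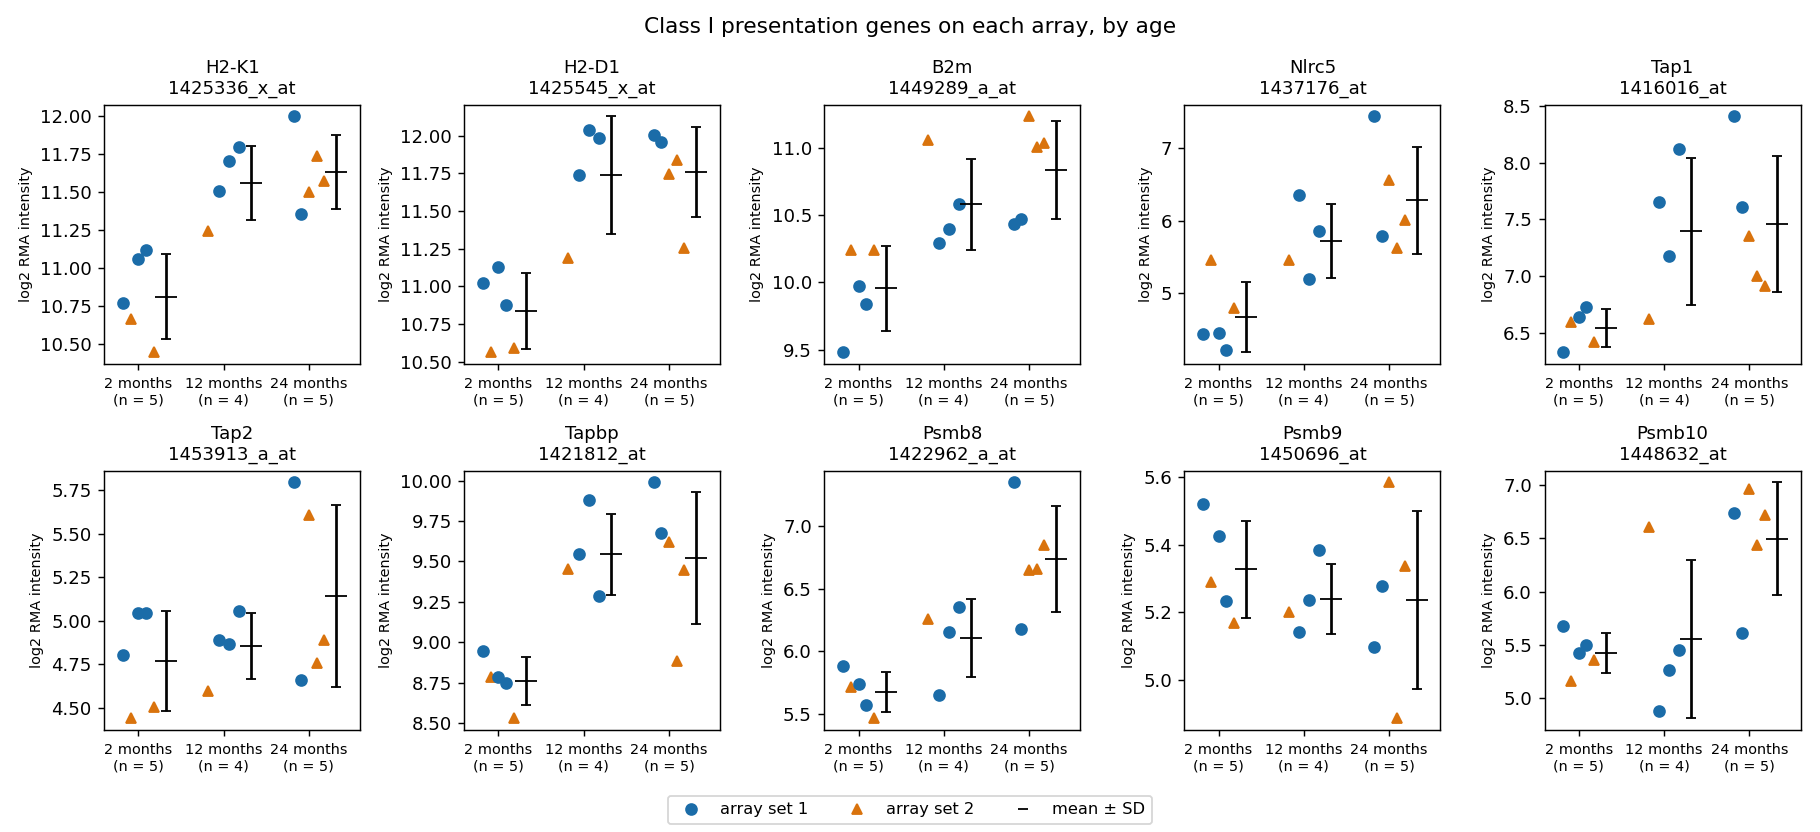
Log2 RMA intensity of the brightest tested probe set of each of the 10 genes (panels) on every array at 2, 12 and 24 months, with circles for array set 1, triangles for set 2, and bars for the mean ± SD; each panel has its own axis, which does not start at 0. H2-K1 and H2-D1 are already high at 12 months, Psmb8 and Psmb10 are highest at 24 months, and Psmb9 has means of 5.24 to 5.33.

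B2m, the invariant light chain that every class I molecule needs, was higher in aged cells by 1 of 2 probe sets. Probe set 1449289_a_at read 9.48, 10.24, 9.97, 9.84 and 10.24 on the young arrays, 11.06, 10.29, 10.40 and 10.58 on the middle-aged and 10.43, 10.47, 11.23, 11.00 and 11.03 on the aged arrays. All older arrays lay above all young ones, and at each age the set 2 arrays were the highest. Aged cells exceeded young cells by 0.88 ± 0.21 (limma adjusted p = 0.0298, 1.84-fold), with 0.69 within set 1 and 0.85 within set 2. The call was lost with that control difference as a covariate (0.45, limma adjusted p = 0.253) and without any 1 of young arrays 1, 3 and 4 and aged arrays 3, 4 and 5. A fit with the replicate number as a block also ended it (limma adjusted p = 0.0741). The second probe set, 1452428_a_at, differed by 0.79 ± 0.24 and did not pass (0.0977), with aged array 1 inside the young range. Middle-aged cells differed from young cells by 0.63 ± 0.22 in 1449289_a_at (limma adjusted p = 0.185).

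The B2m promoter is shown because B2m lies on chromosome 2, apart from the heavy chains on chromosome 17, and holds the same X2 and Y box pair. The window is chr2:122147437-122147686 on the plus strand. Capitals mark a match to the interferon-stimulated response element core GAAANNGAA, which starts 139 bases before the annotated start and whose core was present in 8.56% of all windows, then TGACG and ATTGG, present in 20.81% and 37.41%.
B2m promoter: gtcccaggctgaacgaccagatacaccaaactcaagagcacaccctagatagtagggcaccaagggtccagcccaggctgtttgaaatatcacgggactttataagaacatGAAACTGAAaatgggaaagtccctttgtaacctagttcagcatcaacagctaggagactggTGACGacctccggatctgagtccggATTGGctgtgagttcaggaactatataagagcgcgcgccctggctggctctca
No match to the kappaB core GGGNNTTCC or the class I interferon element core GAANNGAAA was found in the B2m window. Only these letters were searched for, so other spellings of the elements in this or any other window would be missed. The kappaB core, both interferon element cores and TGACG had no match in the windows of Tapbp, Psmb8 and Psmb10. Whether such matches go with the change with age was not tested.

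Tapbp, which encodes tapasin, had higher means at both later ages and was called at 24 months. Probe set 1421812_at read 8.95, 8.79, 8.79, 8.75 and 8.53 on the young arrays, 9.46, 9.55, 9.88 and 9.29 on the middle-aged and 9.99, 9.67, 9.62, 8.88 and 9.45 on the aged arrays. Aged array 4 alone among the older arrays lay inside the young range. Aged cells exceeded young cells by 0.76 ± 0.19 (limma adjusted p = 0.0358, 1.70-fold), and middle-aged cells exceeded young cells by 0.78 ± 0.20 without passing (0.0561). The call at 24 months rests on the full set of arrays, since it was lost without any 1 of the 5 young arrays or of aged arrays 1, 2, 3 and 5 (limma adjusted p between 0.0542 and 0.0841), while the log2 change stayed between 0.65 and 0.81 in those fits. Quantile normalization (0.71, limma adjusted p = 0.0924) and a fit of the aged and young arrays alone (0.76, 0.0627) also ended the call. The dimmer probe set 1450378_at gave means of 4.69 ± 0.21, 5.23 ± 0.31 and 4.82 ± 0.21 at 2, 12 and 24 months (SD, n = 5, 4 and 5) and a difference of 0.13 ± 0.16 between aged and young cells (limma adjusted p = 0.776).

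Tap1 and Tap2 form the transporter that feeds peptides to class I. Tap1 probe set 1416016_at read 6.33, 6.59, 6.64, 6.73 and 6.42 on the young arrays, 6.62, 7.66, 7.18 and 8.12 on the middle-aged and 8.41, 7.61, 7.35, 7.0 and 6.91 on the aged arrays. All aged arrays lay above all young arrays, but the older arrays spanned far more than the young ones. The difference between aged and young cells was 0.91 ± 0.29 and did not pass (limma adjusted p = 0.114), nor did that between middle-aged and young cells (0.85 ± 0.31, 0.196). Within set 1 the aged minus young difference in Tap1 was 1.44 (limma adjusted p = 0.0350), and within set 2 it was 0.58. In a fit with the array set as a term, Tap1 was called at 1.04 (limma adjusted p = 0.0179). The set was read from these same arrays, so p in that fit may be too small. It called 1352 of all probe sets, beside 740 as reported. Without aged array 1 the difference in Tap1 was 0.68. Tap2 probe set 1453913_a_at had 5.79, 4.66, 5.61, 4.75 and 4.89 on aged arrays, against 4.80, 4.44, 5.04, 5.04 and 4.51 on young arrays. Aged arrays 1 and 3 stood above the young range and the other 3 within it, and the difference of 0.37 ± 0.22 did not pass (limma adjusted p = 0.477). The other 3 probe sets of Tap1 lay below the filter, with age means between 2.83 and 3.42.

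Psmb8, which brings chymotrypsin-like activity to the immunoproteasome in place of Psmb5, had the smallest adjusted p among the members. Probe set 1422962_a_at read 5.88, 5.71, 5.74, 5.57 and 5.46 on the young arrays, 6.25, 5.65, 6.15 and 6.35 on the middle-aged and 7.35, 6.17, 6.65, 6.65 and 6.85 on the aged arrays. All aged arrays lay above all young arrays, and middle-aged array 2 lay inside the young range. Psmb8 rose by 1.06 ± 0.20 in aged against young cells (limma adjusted p = 0.00796, 2.09-fold), and the log2 change was 1.03 within set 1 and 1.13 within set 2. Leaving out any single array kept this call, with log2 changes between 0.91 and 1.20, and it was lost only in the smaller fits within a set (limma adjusted p = 0.127 and 0.155). In middle-aged against young cells Psmb8 differed by 0.43 ± 0.21 (limma adjusted p = 0.365).

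Psmb10, which takes the place of Psmb7, had values of 5.68, 5.17, 5.42, 5.50 and 5.36 on the young arrays, 6.61, 4.88, 5.27 and 5.46 on the middle-aged and 6.74, 5.61, 6.96, 6.44 and 6.72 on the aged arrays (probe set 1448632_at). Middle-aged array 1 stood with the aged arrays, and aged array 2 inside the young range. The aged minus young difference was 1.07 ± 0.29 (2.10-fold) and did not pass (limma adjusted p = 0.0639). Psmb10 passed without middle-aged array 1 (1.07, limma adjusted p = 0.0165) or without aged array 2 (1.29, 0.0197), and with the aged and young arrays alone (1.07, 0.0289). It also passed with the array set, which was read from these same arrays, as a term (0.99, limma adjusted p = 0.0494). Its middle-aged minus young difference was 0.13 ± 0.31 (limma adjusted p = 0.904), made of -0.33 within set 1 and 1.35 within set 2, where 1 middle-aged array lies.

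Psmb9, the partner of Psmb8 and Psmb10 that replaces Psmb6, was not called and had about the same mean at each age, 5.33, 5.24 and 5.24. Its only probe set 1450696_at had 5.10, 5.28, 5.58, 4.89 and 5.34 on aged arrays, against 5.52, 5.29, 5.42, 5.23 and 5.17 on young arrays, so the aged range contains the young one. The difference was -0.09 ± 0.14 with a 95% interval from -0.39 to 0.21 (limma unadjusted p = 0.533), which lies below the interval of Psmb8, 0.64 to 1.48. The difference between the genes was not tested. Of the constitutive partners, Psmb5 differed by 0.11 ± 0.14, Psmb6 by 0.16 ± 0.16 and Psmb7 by -0.04 ± 0.23, and 0 of the 3 passed, also at an unadjusted p under 0.05 (limma adjusted p = 0.777, 0.712 and 0.965).

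**Figure D3:**
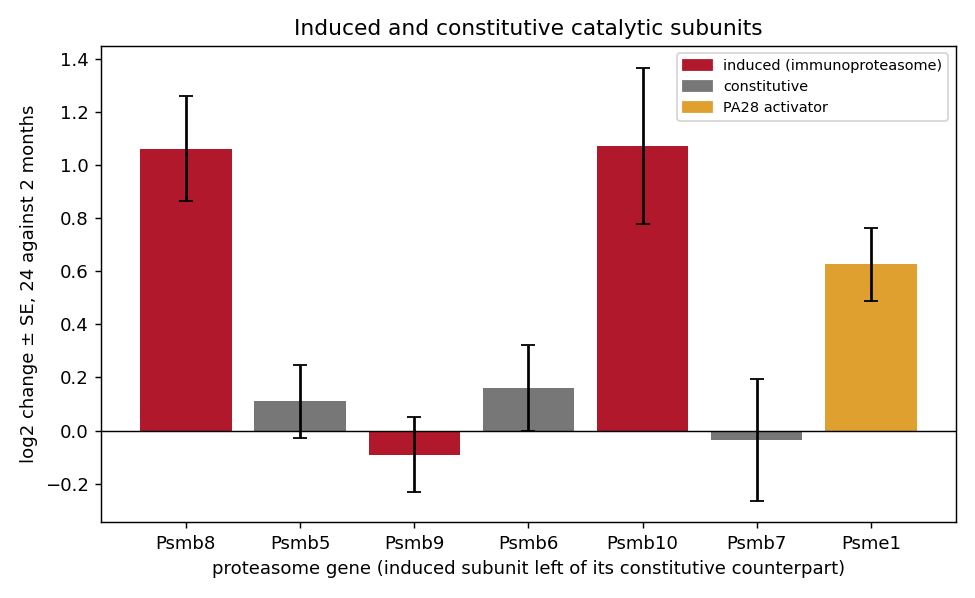
Log2 change of aged (24 months) against young (2 months) cells with its limma standard error (bars from 0) for the induced catalytic subunits in red, each left of its constitutive counterpart in grey, and the activator subunit Psme1 in yellow. Psmb8, Psmb10 and Psme1 stand at 0.63 to 1.07, and Psmb9 and the 3 constitutive subunits lie between -0.09 and 0.16; Psmb10 did not pass the test.

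Psmb9, Tap1, Psmb8 and Tap2 follow each other in this order on chromosome 17 in the RefSeq annotation, and Tap1 and Psmb9 point away from each other. The stretch between their annotated starts is shown because Tap1 was higher on every aged array than on any young array while Psmb9 showed no such order. It has 225 bases, chr17:34187331-34187555, and is printed on the plus strand, which is that of Tap1. Capitals mark CCAAT, which is ATTGG read on the Psmb9 strand, and TGACG.
Tap1 to Psmb9: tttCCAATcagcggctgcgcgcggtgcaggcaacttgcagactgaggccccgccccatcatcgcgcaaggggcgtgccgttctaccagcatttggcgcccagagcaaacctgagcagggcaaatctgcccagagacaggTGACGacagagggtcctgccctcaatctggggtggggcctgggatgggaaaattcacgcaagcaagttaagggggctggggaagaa
TGACG starts 86 bases before the annotated start of Tap1, and ATTGG starts 8 bases before that of Psmb9. Neither interferon element core nor the kappaB core was found here. Windows matched 8 of the 10 genes, and those of Tap2 and Nlrc5 are not analysed here.

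Nlrc5, the transactivator of class I genes, had the largest log2 change of the members. Probe set 1437176_at read 4.44, 5.46, 4.46, 4.22 and 4.79 on the young arrays, 5.46, 6.36, 5.19 and 5.86 on the middle-aged and 7.43, 5.79, 6.55, 5.62 and 6.01 on the aged arrays. All aged arrays lay above all young arrays, with aged array 1 highest, and young array 2 reached the level of the lower middle-aged arrays. Nlrc5 rose by 1.60 ± 0.33 in aged against young cells (limma adjusted p = 0.0143, 3.04-fold). The call held with any single array left out, at log2 changes from 1.32 to 1.80. It was not reached with the control difference as a covariate (1.70, limma adjusted p = 0.0533), and the change was 2.23 within set 1 and 0.93 within set 2 (limma adjusted p = 0.432). The middle-aged minus young difference of 1.04 ± 0.35 did not pass (limma adjusted p = 0.167).

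Before and after 12 months the members had steps of different size, but no difference between the steps was called. The 9 heavy chain probe sets had differences of 0.27 to 1.06 between middle-aged and young cells, and of -0.33 to 0.24 between aged and middle-aged cells. Psmb8 differed by 0.63 ± 0.21 and Psmb10 by 0.94 ± 0.31 between aged and middle-aged cells, at unadjusted p of 0.0086 and 0.00838 (limma adjusted p = 0.468 and 0.467). In that comparison limma called 0 of the 19 members and 0% of all probe sets, with 3 members at an unadjusted p under 0.05, the third being Tapbp 1450378_at at -0.41. For the late step minus the early step it also called 0 of 19 and 0% of all, with 7 members at an unadjusted p under 0.05. Those 7 are probe sets of H2-K1, H2-D1 and Tapbp, and the heavy chain ones all end in _x_at and may share signal. The share of all probe sets at an unadjusted p under 0.05 was not computed for either comparison. The late minus early contrast was positive for 5 of the 19, with a median of -0.48. Its highest value was that of Psmb10 at 0.82 ± 0.55 (limma adjusted p = 0.628). The steps share the middle-aged arrays.

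**Figure D4:**
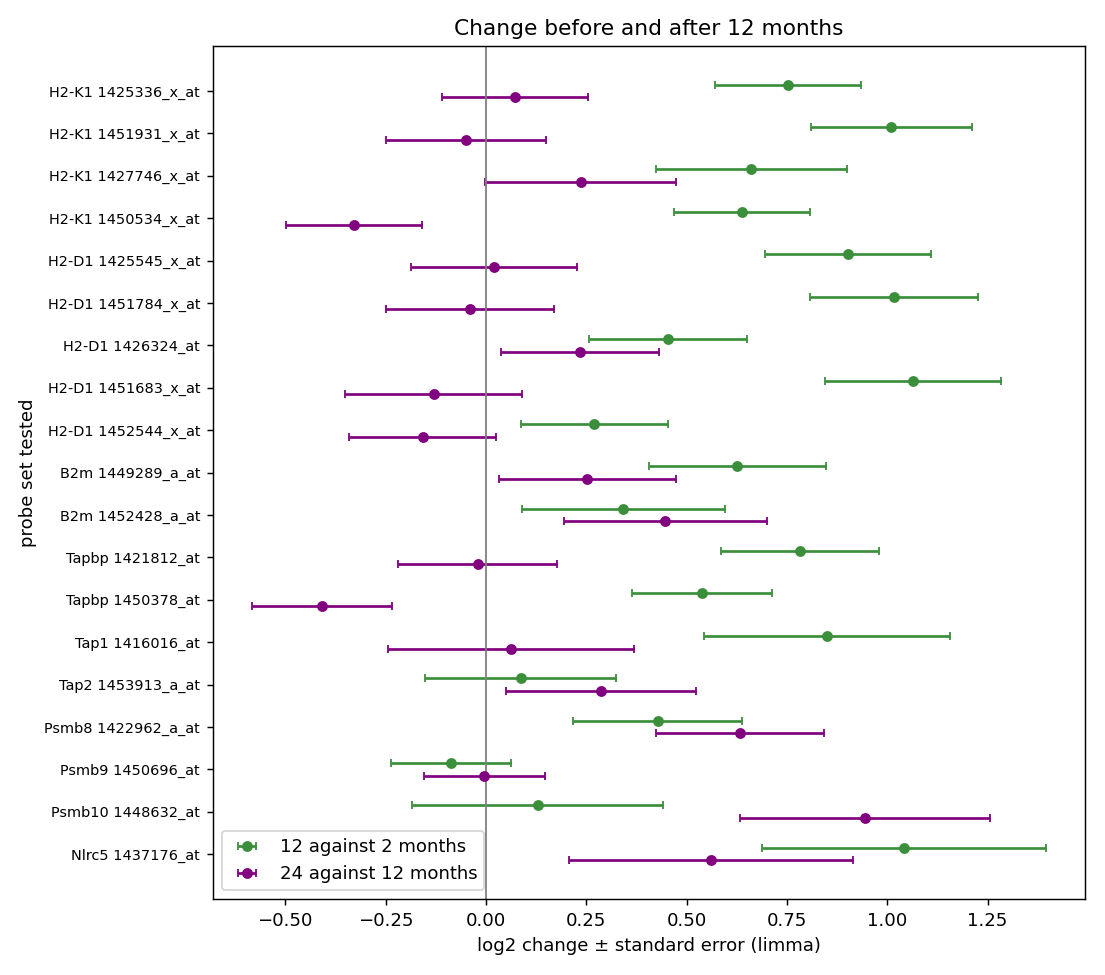
Log2 change with limma's standard error for each tested probe set between 12 and 2 months (green) and between 24 and 12 months (purple). The green points of H2-K1 and H2-D1 lie at 0.27 to 1.06 and their purple points between -0.33 and 0.24, while for Psmb8 and Psmb10 the purple point lies to the right of the green one; no purple point passed the test.

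Genes next to the members in the pathway mostly did not pass. Among 21 other class I and class I-like heavy chain genes, 9 had a tested probe set of their own and 0 were called between aged and young cells by limma (2 at an unadjusted p under 0.05), with a median difference of 0.07. Over all genes, with 1 probe set each, 2.76% were called higher and 0.987% lower. The share of all genes at an unadjusted p under 0.05 was not computed, so such counts for this and the later lists are descriptions. H2-M3, which presents formylated peptides, differed by 0.75 ± 0.24 (limma adjusted p = 0.112), and Fcgrt, the neonatal Fc receptor, by 0.56 ± 0.22 (0.211). Of the 11 measured genes of peptide loading and trimming, 0 passed (1 at an unadjusted p under 0.05), and Calr, the chaperone calreticulin, had -0.37 ± 0.14 (limma adjusted p = 0.194), while Tapbpl, the tapasin-related editor, had 0.34 ± 0.18, also without a call. Among 8 measured activator and assembly genes of the proteasome 1 rose, Psme1, a subunit of the interferon-induced PA28 activator, by 0.63 ± 0.14 (limma adjusted p = 0.0198). Psme1 averaged 8.66 ± 0.18 in aged and 8.04 ± 0.12 in young cells (SD, n = 5 each), with the lowest aged array at 8.41 and the highest young array at 8.14. The call of Psme1 was lost without young array 4 or aged array 1 (limma adjusted p = 0.0574 and 0.0503) and with the control difference as covariate (0.56, 0.104). Psme2, its partner, was not analysed here.

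Among 20 measured interferon receptor and signalling genes, 2 rose and 1 fell in aged cells, beside 2.76% higher and 0.987% lower among all genes. Of the 20, 8 had an unadjusted p under 0.05, a count without a share over all genes beside it. Irf7, a transcription factor induced by interferon, rose by 0.79 ± 0.19 (limma adjusted p = 0.0331). Socs3, a feedback inhibitor of cytokine signalling, rose by 0.95 ± 0.21 (0.0206) and was also higher in middle-aged against young cells (1.08 ± 0.22, 0.0226). Tyk2, a kinase of the type I interferon receptor, fell by 0.64 on the log2 scale (limma adjusted p = 0.0468). Of the 14 fits without 1 array, Tyk2 lost its call in 12 (limma adjusted p between 0.0548 and 0.106), Irf7 in 6 (0.0592 to 0.0922) and Socs3 in 4 (0.0529 to 0.0666). With the 3′ minus 5′ control difference as covariate, none of the 3 was called (limma adjusted p = 0.110, 0.0695 and 0.126 for Tyk2, Irf7 and Socs3). A fit of the aged and young arrays alone did not call them either (limma adjusted p = 0.0756, 0.0598 and 0.0537 in that order). The 12-month call of Socs3 was lost in 5 of the 14. Irf1, which binds the class I interferon element, differed by 0.59 ± 0.19 and did not pass (limma adjusted p = 0.113). The mean level of the 20 genes was 7.58 ± 0.15 in aged and 7.36 ± 0.03 in young cells (SD, n = 5 each; exact permutation p = 0.00794, the smallest possible, adjusted p = 0.0397 over 15 array measures). In middle-aged cells it was 7.65 ± 0.02 (SD, n = 4; exact permutation p = 0.00794 against young cells, adjusted p = 0.0298).

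Factors of the class I promoter complex and NF-kappaB gave 0 calls among 13 measured genes in limma (2 at an unadjusted p under 0.05), with a median difference of -0.06. Nfyb, which binds the Y box as part of NF-Y, had 0.73 ± 0.29 (limma adjusted p = 0.219), and Rfx5, a partner of Nlrc5 at the X box, 0.31 ± 0.17 (0.437). Crebbp, a coactivator, had -0.33 ± 0.15 (0.305). Class II presentation, the pathway of professional antigen-presenting cells, had 7 of 12 listed genes measured and 0 called in limma (1 at an unadjusted p under 0.05), with a median difference of -0.03. Its mean level was 4.09 ± 0.12 in aged and 4.10 ± 0.10 in young cells (SD, n = 5 each; exact permutation p = 0.889), and the H2-Aa and H2-DMb2 differences were 0.23 ± 0.16 (limma adjusted p = 0.562) and -0.39 ± 0.14 (0.187). All 3 probe sets of Ciita, the class II counterpart of Nlrc5, lay below the filter.

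Markers of other cells were set beside the members, since fewer cells of a type and less RNA per cell cannot be told apart in bulk RNA. Leukocytes carry much class I, and 11 of their 20 listed markers were measured. Another 8, including Ptprc (the CD45 of the sort gate), Cd52, Cd53, Itgam, Cd3g and Nkg7, lay below the 40th percentile on all 14 arrays. The 11 measured leukocyte markers gave 0 calls in limma (2 at an unadjusted p under 0.05), and their mean log2 level ran from 4.55 to 5.07 on aged and from 4.71 to 4.85 on young arrays. Lyz2, a myeloid lysozyme, stood at 8.27 ± 1.18 in aged and 6.66 ± 0.54 in young cells (SD, n = 5 each; limma adjusted p = 0.0824), and Lcp1 at 3.75 ± 0.19 and 4.04 ± 0.15 (0.277). Aged array 3, the highest of all in B2m and Psmb10, had the lowest mean of leukocyte markers, 4.55. Aged array 1, the highest of all in H2-K1 1425336_x_at, Tap1, Psmb8 and Nlrc5 and in the mean of the 10 genes (8.52), had the highest mean of leukocyte markers, 5.07.

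Endothelial cells also express class I, and 9 of 12 markers were measured with 0 called in limma (3 at an unadjusted p under 0.05). Their mean was 6.83 on aged array 3 and 6.09 on aged array 2, 4.90 to 5.17 on the other aged arrays, and 5.14 to 5.62 on the young arrays, and Pecam1 was below the filter on all 14. Without aged array 3, 8 of the 19 members were called, among them Psmb8, Nlrc5 and H2-K1 1425336_x_at. B2m (0.78, limma adjusted p = 0.0731) and Tapbp (0.74, 0.0739) were not called in that fit. Aged array 2 stayed in it, and the part of endothelial cells in the class I values was not tested. Esam differed by 0.92 ± 0.34 (limma adjusted p = 0.192) and Tek by -1.18 ± 0.31, just short of a call.

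Tenocyte markers were also higher at both later ages, and some markers of stromal and mural cells were called. All 10 tenocyte markers were measured and 7 rose in aged and 7 in middle-aged against young cells, beside 1.47% of all genes called higher at 12 months. Their mean was 8.21 ± 0.49, 10.36 ± 0.53 and 10.26 ± 0.37 at 2, 12 and 24 months (SD, n = 5, 4 and 5), and every older array lay above every young one. Thbs4 rose by 3.24, Comp by 3.88, Fmod by 1.86 and Tnmd by 2.99 in aged against young cells (limma adjusted p = 0.000353, 0.000504, 0.000605 and 0.000877). Of 12 fibro-adipogenic markers 3 rose in aged cells, namely Dcn (1.27), Dpp4 (2.38) and Mfap5 (1.85), and Col15a1 fell by 1.30. Among the 12, 7 had an unadjusted p under 0.05. The fibro-adipogenic mean was 8.60 ± 0.46 in aged and 8.08 ± 0.06 in young cells (SD, n = 5 each; exact permutation p = 0.0476, adjusted p = 0.119 over 15 array measures), with aged array 4 below every young array. In middle-aged cells this mean was 8.57 ± 0.27 (SD, n = 4; exact permutation p = 0.00794 against young cells, adjusted p = 0.0298). Pdgfrb, a mural and stromal receptor, was the 1 of 10 pericyte and smooth muscle markers called higher, by 2.77, and 6 had an unadjusted p under 0.05. The mean of that list was 7.49 ± 0.33 in aged and 6.77 ± 0.18 in young cells (SD, n = 5 each; exact permutation p = 0.00794, adjusted p = 0.0397 over 15 array measures). In middle-aged cells it was 7.26 ± 0.31 (SD, n = 4; exact permutation adjusted p = 0.0477 against young cells). Alas2, the 1 measured erythroid marker of 6, had 0.58 ± 0.18 (limma adjusted p = 0.108). Of 13 satellite cell markers 3 fell in aged cells, Fgfr4 by 1.24, Calcr by 1.42 and Chrdl2 by 0.81, and their mean was 9.15 ± 0.25 in aged and 9.73 ± 0.16 in young cells (SD, n = 5 each; exact permutation p = 0.0159, adjusted p = 0.0477 over 15 array measures). The part of these markers in the class I values was not tested.

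**Figure D5:**
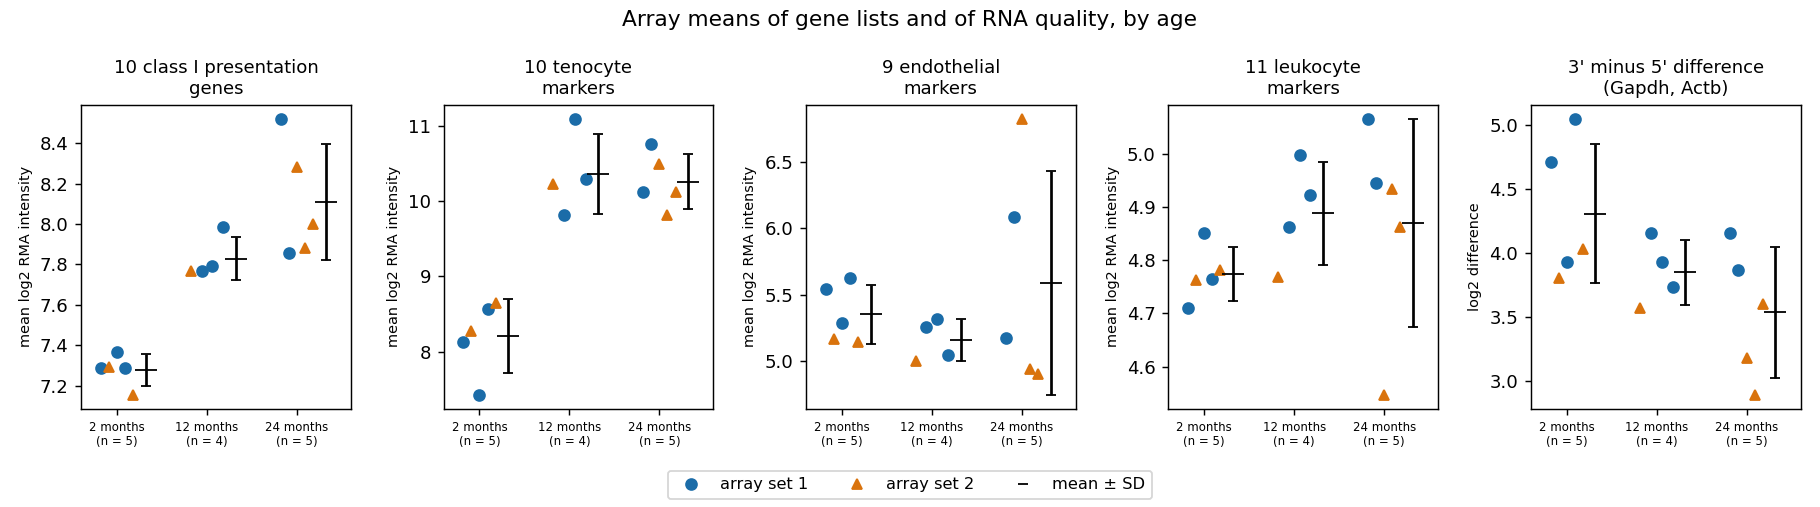
Array means of log2 RMA intensity at 2, 12 and 24 months for the 10 class I presentation genes, the tenocyte, endothelial and leukocyte markers, and the 3′ minus 5′ control difference, with circles for array set 1, triangles for set 2 and bars for mean ± SD; no axis starts at 0. The class I and tenocyte means are higher on every older array than on any young array, aged arrays 2 and 3 stand out in endothelial markers, and the leukocyte means of the ages overlap.

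The 5 genes most like the members were ranked by Pearson's r over the 14 arrays with the mean of the 10 genes' standardised profiles, among 13569 genes. Arrays share age and array set, and the genes were picked for their r, so the values are descriptions. Trim30a, an interferon-induced regulator of NF-kappaB in mouse, had r = 0.932 (Spearman's rho 0.890), 0.914 without young array 5 and aged array 1, which lie farthest from the median profile, and 0.766 for values centred within ages. Mndal, of the interferon-inducible p200 family, had r = 0.926 (rho 0.912; 0.944 and 0.622 in the same checks). Tnfaip2, named for its induction by tumour necrosis factor, had 0.920, the tumour necrosis factor receptor gene Tnfrsf1b 0.897, and Rgl1, a guanine nucleotide exchange factor, 0.890. In aged against young cells Trim30a was higher by 1.70 ± 0.31 (limma adjusted p = 0.00737), Mndal by 4.91 ± 0.53 (0.000229) and Tnfaip2 by 3.16 ± 0.25 (2.34e-05).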

How the data were processed

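Per the labels' protocols, RNA of sorted cells was extracted with Trizol and labelled with Affymetrix's 3′ IVT kit, and per the submitters' processing notes the authors made the values with RMA, which corrects background, normalizes between arrays and summarizes probes. The deposited intensities are linear, and log2 of them was taken here. RMA's version is not given in the sources at hand. Gene symbols came from a platform annotation of 2016, in which 34945 probe sets had 1 symbol, 932 several and 9160 none, and 64 were controls. By Entrez identifier 34741 matched RefSeq. A probe set was kept when it exceeded its array's 40th percentile on at least 4 of 14 arrays, which left 23887.

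All 14 arrays entered 1 model per probe set with age as the only factor (limma 3.58.1 in R 4.3.3, two-sided moderated tests). Errors of differences are limma's standard errors, those of means are SD. A listed gene outside the members was read from its brightest kept probe set. The text names all members, up to 4 called genes per list with the smallest p (up to 2 where none was called), 10 set genes and the 5 best correlates. The members, lists and array sets were chosen with earlier results of these data known. Array measures were compared by exact permutation over 15 measures. The model was tested on simulated data. Alternatives varied the filter, probe set choice, normalization, variance model, array weights, covariate, block, fold, array set and single arrays. The 3 probe sets shared between a member and other genes were left out. Replicate numbers were not used to pair arrays across ages in the reported fit. The correlation of deviations between same-numbered arrays ran from -0.47 to 0.31 over 13 pairs, with 5 above 0.1. These values cannot tell whether same-numbered arrays were processed together. Arrays hold no counting depth, and their number limits the precision.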

Additional observations from a re-analysis of the deposited data

Results flagged for a closer look

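Among 57 groups of arrays, 19 member probe sets at 3 ages, 2 held an array far from the rest of its group by Dixon's test, which chance gives in about 5% of groups. In Tapbp probe set 1450378_at, young array 5 read 4.32, below the other young arrays at 4.75 to 4.83, and its gap took 0.826 of the range. In H2-D1 probe set 1451683_x_at, aged array 5 read 7.82, below the other aged arrays at 8.43 to 8.59, with 0.792 of the range. Without aged array 5, that H2-D1 probe set remained called in aged against young cells.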

How the results depend on the processing

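The count of called members in aged against young cells, 10 as reported, was 6 with 1 probe set a gene, 4 without probe sets ending in _x_at or _s_at, 6 with the control difference (3′ minus 5′) as a covariate, 0 within array set 2, and 6 to 11 with 1 array left out, the 6 arising without young array 1 or young array 4. It lay between 7 and 14 under the other alternatives. The count in middle-aged against young cells, 5 as reported, was 3 with 1 probe set a gene, 0 without probe sets ending in _x_at or _s_at, 3 with quantile normalization, 9 with array weights and 0 within array set 2, which holds 1 middle-aged array. With 1 array left out it ran from 0 to 6, and it was 0 without middle-aged array 3 or 4, 1 without young array 1, and 2 without young array 2, 3, 4 or 5 or middle-aged array 2. With the replicate number as a block, the counts were 9 in aged and 0 in middle-aged against young cells. Over all probe sets the block gave 167 calls at 12 months, and whether replicate numbers pair arrays was not established. For aged against middle-aged cells and for the late minus the early step the count of members was 0 under every alternative run. Fewer probe sets or arrays enter the fits with 1 probe set a gene, without those endings and within sets, and the cause of the other shifts was not tested.

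Over all probe sets tested, 740 were called in aged against young cells, with 12 within array set 2, 1352 with the array set as a term and 471 to 762 with 1 array left out (471 without young array 3 and 487 without young array 1). In middle-aged against young cells 444 were called, with 0 within array set 2, 1079 within set 1, 1461 with array weights, 941 with the covariate, 889 with the array set as a term, 772 with the groups compared alone and 149 to 512 with 1 array left out (149 to 270 without young array 1, 3, 4 or 5 or middle-aged array 3 or 4). Array weights gave 136 calls for the late minus the early step, where the reported fit gave 0, and 3 other fits gave 1 each (within set 1, with the set term, and without middle-aged array 1). No called member turned its direction under the alternatives run. In aged against young cells, member by setting, 469 values kept their side of the threshold, 52 lost a call, 11 gained one and 2 uncalled values changed sign.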
